A study of Mus musculus with 8 samples.

Results

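The proteasome genes of the mouse heart were followed through 4 groups of hearts: 10-week KO, 10-week WT, 4-week KO and 4-week WT. KO mice carried a gene deletion made conditional on the MCK driver, that of muscle creatine kinase. WT mice were their littermates, and every group held the hearts of 2 female mice with 1 Affymetrix array per heart, 8 arrays in all. The MCK driver acts in muscle, so the fibroblasts, vessels and leukocytes of a KO heart lie outside its reach, and each heart was measured whole. All 4 mice at one age came from one litter, so effects of age, of litter and of a processing day cannot be told apart. Members were all genes of the array whose symbol is Psma, Psmb, Psmc, Psmd, Psme, Psmf or Psmg followed by a number and nothing else, each read on the brightest of its probe sets by the mean of the 8 arrays. The rule found 47 genes, with 100 probe sets, among 18193 genes, with 34945 probe sets. Psme2, the partner of Psme1, was read only on a probe set that also names Psme2b, and was not counted. Of the 47 genes, 45 read above the median level of all genes. The other 2, Psma8 of the testis proteasome and Psmb11 of the thymus proteasome, read dim at log2 3.94 to 4.23 and log2 4.11 to 4.41 over the 8 arrays.

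The proteasome is the protease that degrades proteins tagged with ubiquitin. Its 20S core is a barrel of 2 outer rings of alpha subunits and 2 inner rings of beta subunits, of which Psmb5, Psmb6 and Psmb7 cut the substrate. The 19S particle caps the barrel, binds and removes ubiquitin, and unfolds the substrate with a ring of ATPases. Under interferon, Psmb8, Psmb9 and Psmb10 replace the 3 constitutive catalytic subunits to form the immunoproteasome, and other caps such as Psme1 can take the place of the 19S particle. In heart muscle the proteasome turns over sarcomere and signalling proteins.

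Promoters of 4 members are shown because these genes span the roles and directions of the calls at 10 weeks: Psme1 with the largest fall among the members, Psmb6 as the constitutive catalytic subunit that fell, Psmd8 with the largest rise, and Psmd9 as the 19S chaperone that rose. The sequences run 5' to 3' on the gene's strand, from 250 bases before to 50 bases after the transcription start, and come from RefSeq on GRCm38.p6. They lie at chr14:55578244-55578543 on the plus strand for Psme1, chr11:70525107-70525406 on the plus strand for Psmb6, chr7:29180624-29180923 on the minus strand for Psmd8 and chr5:123227940-123228239 on the plus strand for Psmd9. Capitals mark matches to 3 motifs searched on both strands, none of which overlapped another match: TGACNNNGC, the core of the antioxidant response element, CCAAT, the CCAAT box, and the core of the interferon-stimulated response element (ISRE).
Psme1: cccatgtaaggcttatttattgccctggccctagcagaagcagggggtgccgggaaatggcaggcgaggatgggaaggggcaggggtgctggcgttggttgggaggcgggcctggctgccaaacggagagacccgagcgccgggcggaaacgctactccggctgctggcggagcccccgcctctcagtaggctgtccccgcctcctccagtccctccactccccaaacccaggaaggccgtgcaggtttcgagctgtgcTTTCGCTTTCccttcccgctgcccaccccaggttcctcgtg
Psmb6: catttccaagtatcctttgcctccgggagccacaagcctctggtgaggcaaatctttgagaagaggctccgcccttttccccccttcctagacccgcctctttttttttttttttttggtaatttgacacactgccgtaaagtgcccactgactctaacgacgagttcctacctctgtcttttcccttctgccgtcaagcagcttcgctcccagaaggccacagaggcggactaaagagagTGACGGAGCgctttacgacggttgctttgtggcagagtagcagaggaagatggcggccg
Psmd8: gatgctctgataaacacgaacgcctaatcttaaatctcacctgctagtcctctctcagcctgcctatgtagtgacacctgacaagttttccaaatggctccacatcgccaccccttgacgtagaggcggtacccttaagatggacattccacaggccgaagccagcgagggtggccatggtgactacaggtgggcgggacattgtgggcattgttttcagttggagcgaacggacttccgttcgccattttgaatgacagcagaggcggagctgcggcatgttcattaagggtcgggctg
Psmd9: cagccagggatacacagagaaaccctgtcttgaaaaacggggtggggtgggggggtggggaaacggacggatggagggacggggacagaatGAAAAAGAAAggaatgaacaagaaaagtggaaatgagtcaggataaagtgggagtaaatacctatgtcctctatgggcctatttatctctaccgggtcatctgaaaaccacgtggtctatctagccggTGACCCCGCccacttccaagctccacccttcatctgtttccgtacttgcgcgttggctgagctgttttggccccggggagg
In Psme1 the capitals are a reverse-strand match to the ISRE core that begins 10 bases after the start. In Psmb6 they are a match to TGACNNNGC at -9 from the start. Psmd9 held a match to the ISRE core at -159 and one to TGACNNNGC at -31, and Psmd8 held none of the 3. Promoters were found for 39 of the 47 genes, as 41 sequences. TGACNNNGC stood in 6 of these 41 (Psmb5, Psmb6, Psmc6, Psmd12, Psmd9 and Psme4) and in 12.4% of 32851 mouse promoters of the same length. The ISRE core stood in 5 of the 41 (Psmb3, Psmd4, Psmd9, Psme1 and Psmg4) and in 3.44% of all, and CCAAT in 14 of the 41 and in 37.4% of all. A match describes the letters of this window and was not tested against the levels.

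Array medians lay between 34.3 and 37.4 on the linear intensity scale, and the 2 arrays per group limit the precision. Replicate 1 of the 10-week WT hearts stood apart from its partner for the core genes, with a mean 0.37 above the 8-array mean of the 14 ring genes on the log2 scale, against -0.03 on replicate 2. That array also read a liver and a kidney gene high, Alb at log2 10.94 and Kap at log2 9.73, against 7.78 and 7.29 on replicate 2. Both 10-week KO hearts read Kap lower still, at 55.5 to 56.8 on the linear scale against 156 to 851 in WT hearts. The Kap difference was -2.70 on the log2 scale (adjusted p = 0.0218 in limma). At 4 weeks Kap read 48.9 to 62.1 in KO and 119 to 239 in WT hearts. In 3 liver genes both 10-week KO arrays lay below both WT arrays, with 0 past the test described below. Replicate 2 of the 4-week KO hearts read Alb at log2 11.05 with a ring-gene mean of 0.14. The summed intensity of 4 fibroblast markers was 11470 to 11721 in 10-week KO hearts and 4167 to 6116 in 10-week WT hearts. At 4 weeks it was 8803 to 9947 in KO and 8029 to 9406 in WT hearts, so the 10-week WT hearts were the lowest. The 10-week differences of the 4 ran from 0.24 for Pdgfra to 2.05 for Col1a1 on the log2 scale. The sum of 12 leukocyte markers was 2873 to 3565 in 10-week KO hearts and 1742 to 1946 in 10-week WT hearts. The 5 cardiomyocyte markers summed to 52839 to 60264 in KO and 50167 to 62547 in WT at that age. In the test described below, 2 of these 5 were lower in KO at 10 weeks and 0 higher. Their differences ran from -1.27 for Ryr2 to 0.41 for Tnnt2 on the log2 scale, with 3 above 0. In whole hearts, fewer cells of a type and less RNA per cell cannot be told apart, and the part of cell make-up or of other tissue in the results below was not tested.

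At 10 weeks, 11 of the 47 proteasome genes passed the test between KO and WT, 3 higher and 8 lower in KO. Psmd8, Psmd11 and Psmd9, all of the 19S particle or its assembly, rose. Psma1, Psma7, Psmb4 and Psmb6 of the 20S rings, the immunoproteasome subunit Psmb8, the 19S subunit Psmd6, the activator Psme1 and the assembly chaperone Psmg1 fell. The test was limma on all genes and all 8 arrays, and a gene passed at an adjusted p under 0.05 (Benjamini-Hochberg, 18193 genes). Of all genes tested 12.1% passed, 5.19% higher and 6.89% lower. Proteasome genes read brighter than most, so genes at or above the median level, fitted alone, are the nearer background: 22.5% of these passed, 9.22% higher and 13.3% lower, beside 11 of 45 members, or 24.4%. The share of members that passed is therefore near that of genes at or above the median level. Against that background the call count alone does not mark the proteasome out. Many members read well above that median, and the share among genes of the members' own level was not computed. With only the 4 arrays of that age in the fit, Psmd8 and Psme1 passed and the other 9 did not (adjusted p 0.0594 to 0.170).

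The direction was less even than the count. The difference was below 0 for 34 members and above 0 for 13, with a median of -0.23 on the log2 scale, against 0.00 over all genes. Over genes at or above the median level the median was 0.01. In 25 members both KO arrays read below both WT arrays, and in 6 both read above, where 23.5% and 23.7% of all genes did so. These shares were not computed for bright genes alone, and the part of brightness in the direction was not tested. The groups overlapped for the other 16 members. The plot of all members by part shows the 20S rings to the left of 0 and the 19S subunits on both sides.

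**Figure D1:**
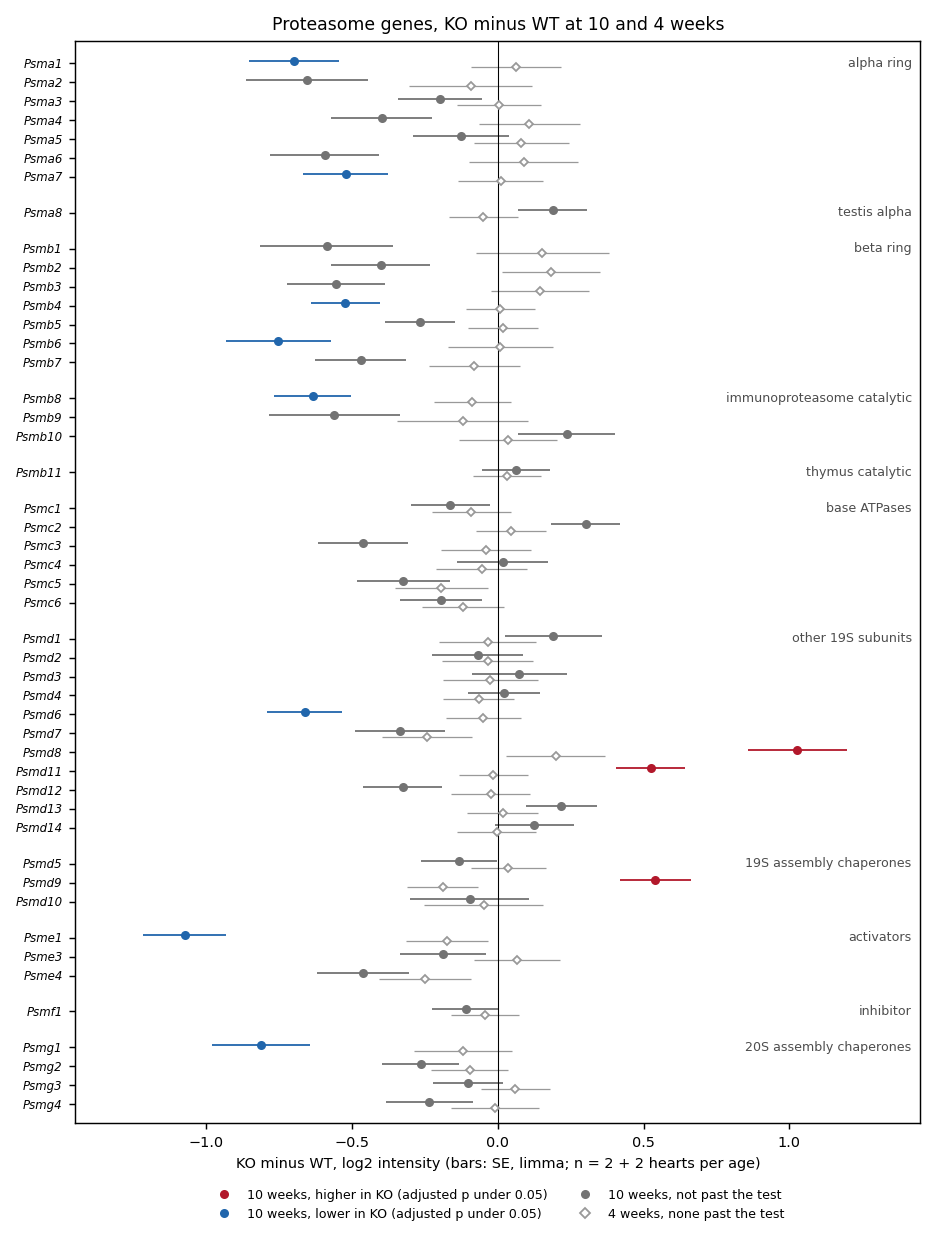
KO minus WT difference of log2 intensity for each of the 47 proteasome genes, grouped by part, at 10 weeks (filled circles) and 4 weeks (open diamonds), with bars for the SE from limma and 2 hearts per group. At 10 weeks all 14 alpha and beta ring genes lie left of 0 and 11 members pass the test, and at 4 weeks no member passes.

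The 20S rings were read first. All 14 ring genes had a difference below 0 at 10 weeks, with a median of -0.52 in the 7 alpha and in the 7 beta genes alike. Of the 14, 4 passed the test, 11 had an unadjusted p under 0.05 and 11 had both KO arrays below both WT arrays. Over all 18193 genes, 4291 had an unadjusted p under 0.05. Among the alpha subunits, which form the gated outer rings, Psma1 read log2 9.31 and 9.43 in KO hearts, against 10.29 and 9.86 in WT hearts. That is a difference of -0.70 ± 0.15 (SE, n = 2 per group, adjusted p = 0.0169 in limma). Psma7, also of the outer ring, read log2 9.34 and 9.29 in KO hearts, against 10.03 and 9.64 in WT hearts, a difference of -0.52 ± 0.15 (adjusted p = 0.0480). A further probe set of Psma7 passed at -0.56 (adjusted p = 0.0499 over all probe sets). By that same adjustment the probe set used missed the test (adjusted p = 0.0526). In both genes the KO pair lies together and below the WT pair, and the WT pair is spread, with replicate 1 the higher. Psma5 was the alpha gene with the smallest difference, -0.13 ± 0.16 (adjusted p = 0.735), and its groups overlapped. The other 4 alpha genes, Psma2, Psma3, Psma4 and Psma6, had differences of -0.65, -0.20, -0.40 and -0.59 and did not pass. For Psma6 a further probe set passed at -0.66 (adjusted p = 0.0408 over all probe sets).

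Among the beta subunits, Psmb4, which builds the inner ring and does not cut, read log2 10.45 and 10.40 in KO hearts, against 11.03 and 10.86 in WT hearts. The difference was -0.52 ± 0.12 (adjusted p = 0.0191), with the 2 groups apart. Psmb1, Psmb2 and Psmb3, the other non-catalytic beta subunits, had differences of -0.59, -0.40 and -0.56 and did not pass, and a further probe set of Psmb3 did at -0.68 (adjusted p = 0.0315 over all probe sets). The catalytic subunits are given with their immunoproteasome counterparts below.

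The size of the core-gene difference rested in part on the WT replicate that stood apart. Without replicate 1 of the 10-week WT hearts the median of the 14 ring genes was -0.26, with 13 of 14 below 0 and 0 past the test. Without WT replicate 2 it was -0.69, with more of them past the test, and more of all genes passed as well. Leaving out KO replicate 1 or 2 gave medians of -0.55 and -0.44 and 0 past the test. Single genes followed: without WT replicate 1 Psma1 read -0.48 (adjusted p = 0.0578), Psmb6 -0.47 (0.0804), Psmb4 -0.44 (0.0713) and Psma7 -0.33 (0.199). Without KO replicate 1 Psma1 read -0.64 (0.107), Psmb6 -0.85 (0.0717), Psmb4 -0.55 (0.0761) and Psma7 -0.55 (0.150), and without KO replicate 2 they read -0.76 (0.0588), -0.66 (0.148), -0.50 (0.0952) and -0.50 (0.187). These 4 genes kept their sign in each of these settings. All 4 passed without WT replicate 2, and none of them without 1 of the other 3 arrays of that age. The calls also turned on the normalization and the probe sets. After a further quantile normalization Psma7 (-0.36, adjusted p = 0.173), Psmb4 (-0.38, 0.0659) and Psmb6 (-0.59, 0.0740) did not pass. With its probe sets averaged Psma1 read -0.21 and did not pass (adjusted p = 0.263), since its other 3 probe sets are dim, at a mean of log2 5.21 or less, and differed by -0.07 to 0.01. Psma7 missed the test with array weights (0.0758) and with trend and robust settings (0.0813). Psma7 also missed the test without any 1 of the 4 arrays of the 4-week hearts (adjusted p 0.0763 without a KO array and 0.0954 without a WT array), and Psmb6 without either 4-week WT array (0.0572).

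**Figure D2:**
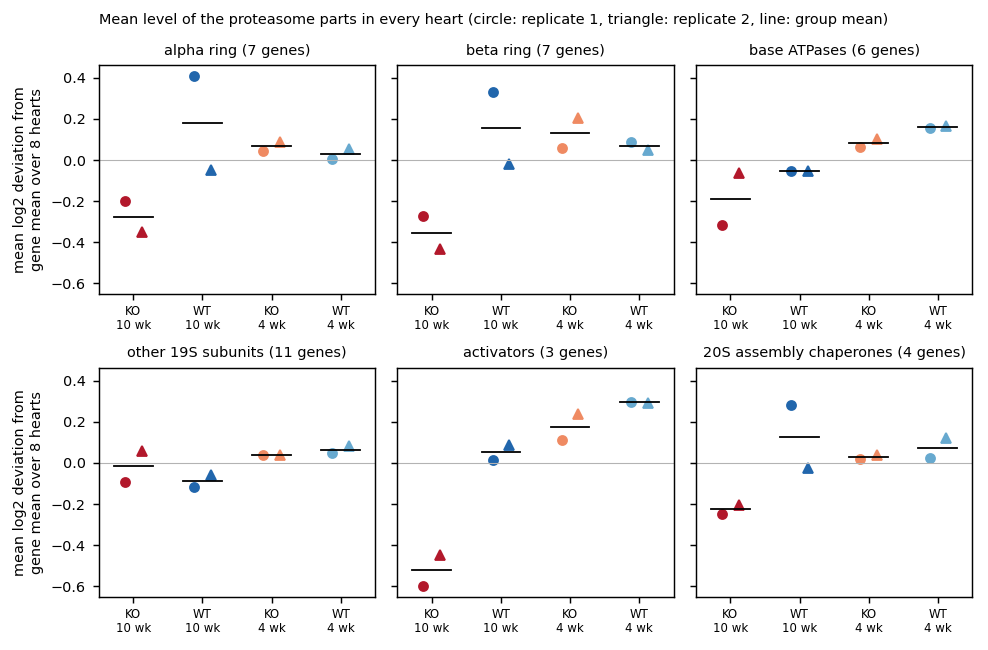
Mean deviation of the genes of 6 proteasome parts from each gene's mean over the 8 hearts (log2 scale), 1 point per heart, with 10-week KO, 10-week WT, 4-week KO and 4-week WT from left to right and a line at the group mean. Replicate 1 of the 10-week WT hearts lies at 0.41 in the alpha ring and 0.33 in the beta ring, above all other hearts, and both 10-week KO hearts lie lowest in both rings.

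The ring genes of the 8 hearts, averaged, show the same order of values. The mean deviation of the 14 genes was -0.24 and -0.39 in 10-week KO hearts, against 0.37 and -0.03 in 10-week WT hearts. It was 0.05 and 0.14 in 4-week KO hearts, against 0.05 and 0.05 in 4-week WT hearts. The 10-week KO hearts are thus the lowest of the 8, and WT replicate 2 of that age lies nearer to the 4-week hearts than to its own partner. The 17 19S subunits averaged -0.17 and 0.02 in 10-week KO hearts, against -0.09 and -0.06 in 10-week WT hearts, where the groups overlapped.

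Catalytic subunits were compared by site. Psmb6, the caspase-like subunit of the constitutive core, read log2 10.13 and 9.94 in KO hearts, against 11.07 and 10.50 in WT hearts at 10 weeks. The difference was -0.75 ± 0.18 (adjusted p = 0.0248), the largest of the 14 ring genes. Psmb7, the trypsin-like subunit, read log2 11.41 and 11.29 in KO hearts, against 12.04 and 11.59 in WT hearts, a difference of -0.47 ± 0.16 that did not pass (adjusted p = 0.0883). Both KO hearts again lie below both WT hearts, and WT replicate 1 is the highest. Psmb7 passed without WT replicate 2 at -0.70 (adjusted p = 0.00736). Psmb5, the chymotrypsin-like subunit, read log2 10.16 and 10.02 in KO hearts, against 10.41 and 10.31 in WT hearts, a difference of -0.27 ± 0.12 (adjusted p = 0.221). It had the smallest difference of the 7 beta genes.

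The immunoproteasome subunits did not move as one. Psmb8, which takes the site of Psmb5, read log2 7.03 and 7.05 in KO hearts, against 7.80 and 7.54 in WT hearts. It fell by 0.64 ± 0.13 on the log2 scale (adjusted p = 0.0130), with the groups apart. Psmb9, which takes the site of Psmb6, read log2 6.35 and 6.37 in KO hearts, against 7.26 and 6.58 in WT hearts, a difference of -0.56 ± 0.23 (adjusted p = 0.163) that WT replicate 1 sets apart. Without WT replicate 2 it passed at -0.90 (adjusted p = 0.0105). Psmb10, which takes the site of Psmb7, read log2 9.05 and 9.09 in KO hearts, against 9.10 and 8.57 in WT hearts, a difference of 0.24 ± 0.17 (adjusted p = 0.470) with overlapping groups. Its value turned on 1 WT heart: it passed at 0.50 (adjusted p = 0.0488) without WT replicate 1 and was -0.03 without WT replicate 2. Psmb8 missed the test at -0.62 (adjusted p = 0.0742) without KO replicate 1 and at -0.65 (0.0614) without KO replicate 2. Psmb11, the thymus subunit, differed by 0.06 ± 0.12 (adjusted p = 0.828), and the testis alpha subunit Psma8 by 0.19 ± 0.12 (adjusted p = 0.403), both dim.

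**Figure D3:**
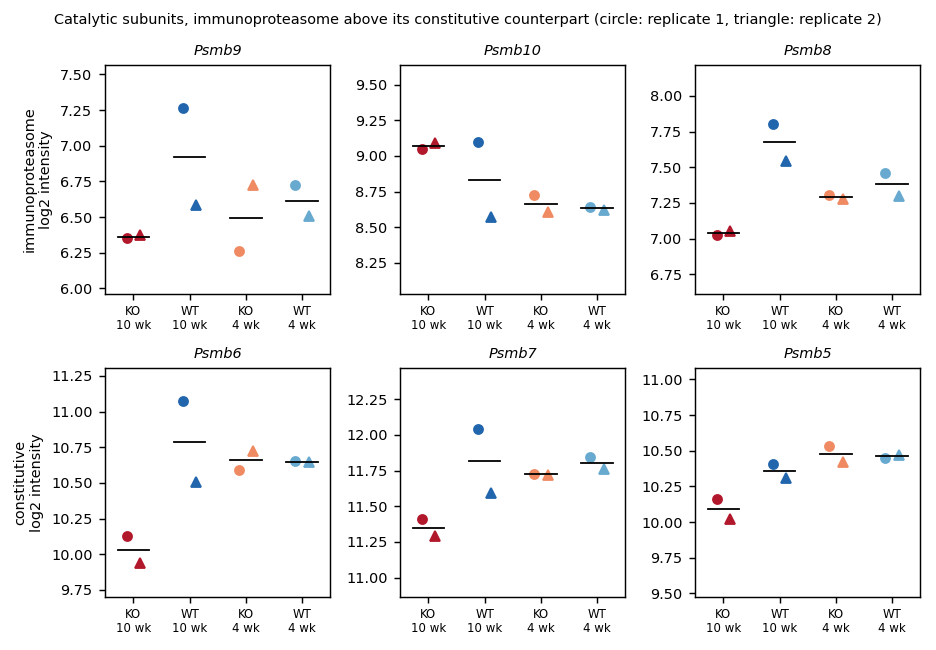
Log2 intensity of the 3 immunoproteasome catalytic subunits (top) above the constitutive subunit of the same site (bottom) in every heart, with 10-week KO, 10-week WT, 4-week KO and 4-week WT from left to right and a line at the group mean. Psmb8, Psmb6, Psmb7 and Psmb5 read lower in both 10-week KO hearts than in all other hearts, and Psmb10 reads log2 9.05 and 9.09 there, beside 9.10 in 1 WT heart.

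Genes that work beside the immunoproteasome were read from a list. Of 7 genes that load peptides on class I molecules, 1 passed and all 7 had a difference below 0, with a median of -0.29. H2-D1, a class I heavy chain, read log2 9.82 and 10.00 in KO hearts, against 10.50 and 10.42 in WT hearts, and fell by 0.55 ± 0.12 (adjusted p = 0.0167). Of 3 measured genes of the interferon response, Irf1, a transcription factor that induces Psmb8 and Psmb9, fell by 0.57 ± 0.13 (adjusted p = 0.0227), with log2 7.96 and 7.84 in KO hearts against 8.60 and 8.34 in WT hearts. Without KO replicate 1 H2-D1 read -0.46 (adjusted p = 0.112) and Irf1 -0.63 (0.0705), and without WT replicate 1 -0.51 (0.0507) and -0.44 (0.0899), so both missed the test. Irf1 also missed it at -0.51 (adjusted p = 0.126) without KO replicate 2 and at -0.57 (0.0540) without either 4-week WT array. Irf1 read -0.53 (adjusted p = 0.0642) after a further quantile normalization. H2-D1 read -0.45 (adjusted p = 0.109) without its probe sets of shared sequence and -0.29 (0.0900) with its probe sets averaged. Irf8 and Nlrc5 had differences of -0.25 and -0.08 and did not pass. Leukocytes are a main site of the immunoproteasome, and of their 12 measured markers 3 rose and 1 fell at 10 weeks. Cd68 of macrophages rose by 1.80 ± 0.18, and Cd79b of B cells fell by 0.87 ± 0.22.

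The 19S particle went both ways. Its 17 subunits had a median of 0.02 at 10 weeks, with 9 above 0 and 8 below, 2 higher and 1 lower past the test. Psmd8, a subunit of the 19S lid, read log2 10.69 and 10.92 in KO hearts, against 9.99 and 9.57 in WT hearts. It rose 2.04-fold, by 1.03 ± 0.17 on the log2 scale (adjusted p = 0.00444), and both KO hearts lie above all 6 others, the highest of which reads 10.17. Psmd8 is read by 1 probe set, and it passed in each of 18 alternative settings, at 0.81 to 1.24.

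Psmd11, the lid subunit that clamps the 19S particle to the core, read log2 11.05 and 11.10 in KO hearts, against 10.49 and 10.61 in WT hearts, a difference of 0.52 ± 0.12 (adjusted p = 0.0193). The KO pair lies close together, above all other hearts. Its 8 probe sets did not read alike: that value comes from one of shared sequence, while the 3 next in brightness, at means of log2 9.65 to 9.01 against 10.74 for the one used, gave -0.33 (adjusted p = 0.135 over all probe sets), 0.47 (0.0313) and 0.43 (0.244). Without the probe sets of shared sequence, the one at -0.33 was the brightest and stood for Psmd11. With all 8 averaged Psmd11 read 0.25 and did not pass (adjusted p = 0.145). Psmd11 also missed the test without KO replicate 1 (0.55, adjusted p = 0.0756), KO replicate 2 (0.50, 0.0973) or WT replicate 1 (0.46, 0.0657). Its direction is therefore uncertain.

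Psmd6, a lid subunit of the same family as Psmd11, went the other way. It read log2 9.38 and 9.27 in KO hearts, against 10.08 and 9.90 in WT hearts, and fell by 0.66 ± 0.13 (adjusted p = 0.00962). A further probe set of Psmd6 passed as well at -0.74 (adjusted p = 0.00855 over all probe sets), and without KO replicate 2 the gene missed the test at -0.61 (0.0654). The groups do not overlap and the KO hearts lie below all 6 others. The other 8 subunits outside the ATPase ring, among them the ubiquitin receptor Psmd4 at 0.02, the deubiquitinase Psmd14 at 0.12 and the large scaffolds Psmd1 and Psmd2 at 0.19 and -0.07, lay between -0.34 and 0.22 and did not pass. The highest of them, Psmd13, had a dim further probe set that passed on the other side of 0, at -0.56 (adjusted p = 0.0212 over all probe sets).

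None of the 6 base ATPases, which unfold the substrate and open the gate of the core, passed on the probe set used. Their median was -0.18, and they ran between Psmc3 at -0.46 ± 0.15 (adjusted p = 0.0924) and Psmc2 at 0.30 ± 0.12 (adjusted p = 0.157). Psmc3 read log2 9.60 and 10.00 in KO hearts, against 10.14 and 10.38 in WT hearts, and passed at -0.66 (adjusted p = 0.0464) without KO replicate 2. Psmc2 read log2 10.92 and 10.95 in KO hearts, against 10.54 and 10.72 in WT hearts. Both genes keep their groups apart, on opposite sides. Psmc2 passed at 0.40 (adjusted p = 0.0449) after a further quantile normalization. Its probe set is one of shared sequence. A dimmer one read 0.14 (adjusted p = 0.588 over all probe sets) and the dimmest -0.23 (0.433). Over the alternative settings the lowest value of Psmc2 was 0.07. A dimmer probe set of Psmc6, of shared sequence, passed at -0.78 (adjusted p = 0.00968 over all probe sets), where the brighter one used read -0.20 (adjusted p = 0.478).

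Of the chaperones that build the 19S base, Psmd9 rose and Psmd5 and Psmd10 did not pass. Psmd9 read log2 7.48 and 7.40 in KO hearts, against 6.83 and 6.97 in WT hearts, a difference of 0.54 ± 0.12 (adjusted p = 0.0198). The KO pair lies above all other hearts, though the 4-week WT pair at 7.27 and 7.15 is close. A dimmer probe set of Psmd9 read 0.13 (adjusted p = 0.637 over all probe sets), and with all probe sets of Psmd9 averaged the gene read 0.26 (adjusted p = 0.110). With array weights the adjusted p was 0.0503. The gene missed the test without KO replicate 1 (0.50, adjusted p = 0.112), KO replicate 2 (0.58, 0.0652) or WT replicate 1 (0.47, 0.0690). Psmd5 read -0.13 and Psmd10, also known as gankyrin, -0.10.

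The activators gave the largest fall. Psme1, the alpha subunit of a ring-shaped cap that opens the core without ubiquitin or ATP and is induced by interferon, read log2 9.44 and 9.65 in KO hearts, against 10.70 and 10.53 in WT hearts. Its level was 2.11-fold lower, a difference of -1.07 ± 0.14 (adjusted p = 0.00151). The 10-week KO hearts lie below all 6 others, the lowest of which reads 10.52, and WT replicate 1 did not stand far from its partner. Psme1 passed in each of 18 alternative settings, at -1.18 to -0.91. It is read by 1 probe set, and Psme2 was not measured apart.

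Psme4, a large nuclear cap, read log2 10.04 and 9.89 in KO hearts, against 10.23 and 10.63 in WT hearts, a difference of -0.46 ± 0.16 that did not pass (adjusted p = 0.0984). It passed at -0.66 (adjusted p = 0.0233) without WT replicate 1 and at -0.60 (0.0474) without the probe sets of shared sequence. Psme3, a nuclear cap of the Psme1 family, read log2 7.54 and 7.94 in KO hearts, against 7.94 and 7.92 in WT hearts, a difference of -0.19 ± 0.15 (adjusted p = 0.520) in which KO replicate 1 is the low heart. Psmf1, an inhibitor of the core in vitro, differed by -0.11 ± 0.12 (adjusted p = 0.662). The sign of Psme3 turned to 0.09, and that of Psmf1 to 0.07, on the mean of their probe sets.

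Psmg1, which with Psmg2 lines up the alpha subunits of a new core, read log2 7.86 and 7.76 in KO hearts, against 8.88 and 8.36 in WT hearts. It fell by 0.81 ± 0.17 (adjusted p = 0.0126), with both KO hearts below all 6 others. It missed the test at -0.87 (adjusted p = 0.0561) without KO replicate 1 and at -0.76 (0.0806) without KO replicate 2. Psmg2, Psmg3 and Psmg4, the other assembly chaperones, had differences of -0.27, -0.10 and -0.23 and did not pass. Pomp, which helps the beta rings close, read -0.43 ± 0.15 (adjusted p = 0.104), and the small 19S subunit Sem1 -0.64 ± 0.23 (adjusted p = 0.121). These are the largest differences of the 6 measured genes on a list of 11 further 19S and assembly symbols, none of which passed. Some genes stand on that list under more than 1 symbol.

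**Figure D4:**
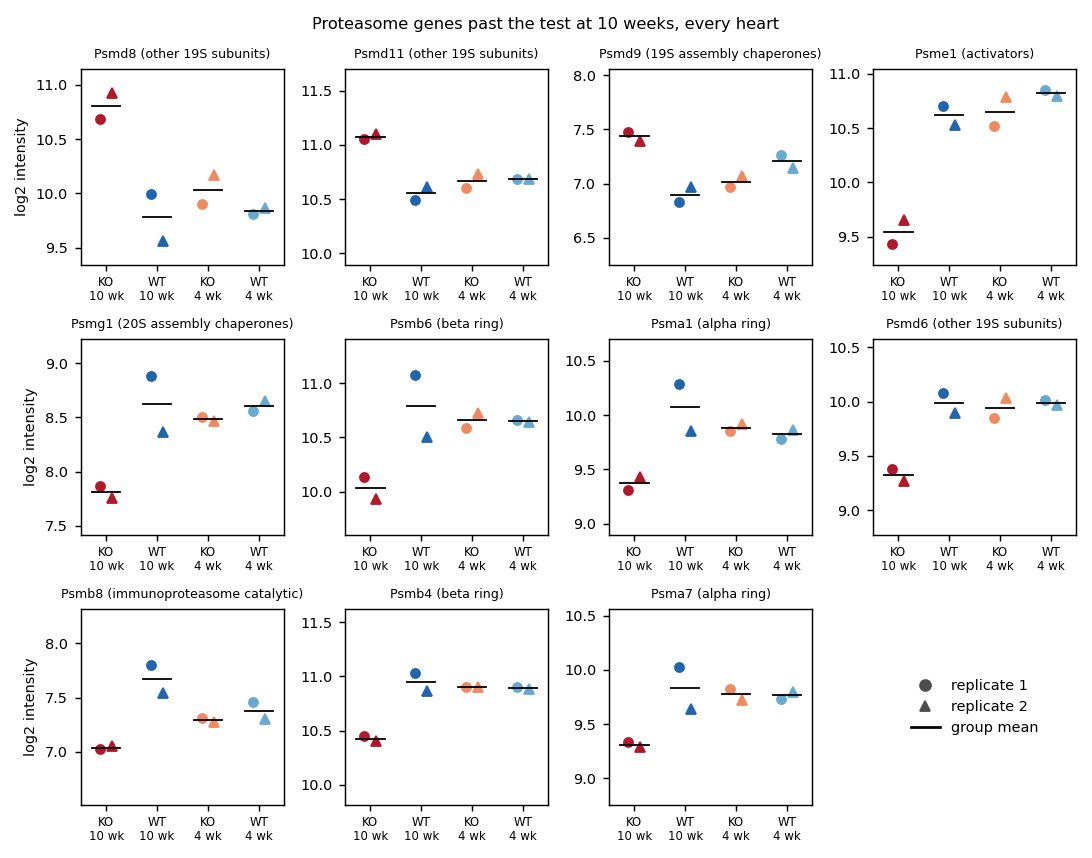
Log2 intensity of the 11 members past the test at 10 weeks in every heart, with 10-week KO, 10-week WT, 4-week KO and 4-week WT from left to right, circles for replicate 1, triangles for replicate 2 and lines at group means. In each panel the 10-week KO pair lies outside the range of all 6 other hearts, above it for Psmd8, Psmd11 and Psmd9 and below it for the other 8.

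Upstream and neighbouring genes were counted as well. Of 6 measured transcription factors and activators of proteasome genes, 0 passed. Nfe2l1, the factor that raises proteasome genes when the protease is blocked, read 0.31 ± 0.20 (adjusted p = 0.411), and Nfe2l2, the factor of the antioxidant response, 0.42 ± 0.15 (adjusted p = 0.118). Zfand5, which stimulates the protease in muscle wasting, read -0.43 ± 0.14 (adjusted p = 0.0796). Of 7 measured genes that deliver ubiquitin-tagged proteins, 0 passed and 6 lay above 0, with a median of 0.34. Rad23b, a shuttle factor, read 0.69 ± 0.21 (adjusted p = 0.0703), and Vcp, the ATPase that pulls tagged proteins out of complexes, 0.39 ± 0.19 (adjusted p = 0.257). WT replicate 1 read below its partner in all 7 genes, as for Vcp, which read log2 11.08 and 11.28 in KO hearts, against 10.50 and 11.09 in WT hearts. The array that stood high for the core genes thus stood low for these.

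At 4 weeks no proteasome gene passed, where 5 of all genes did, or 0.0275%. In limma 0 of the 47 had an unadjusted p under 0.05, where 679 of all 18193 genes did, and each adjusted p was 0.999. The differences ran between -0.25 for Psme4 and 0.20 for Psmd8, with a median of -0.02, against 0.01 over all genes. Both KO arrays lay below both WT arrays in 9 members and above in 5, where 17.5% and 19.4% of all genes did so, and overlapped in the other 33. The median was 0.04 for the 14 ring genes and -0.04 for the 17 19S subunits. Psme1 read log2 10.52 and 10.78 in KO hearts, against 10.85 and 10.80 in WT hearts, with the higher KO heart next to the lower WT heart. Psmd8 read log2 9.90 and 10.17 in KO hearts, against 9.81 and 9.86 in WT hearts, and Psmb6 10.59 and 10.73 against 10.66 and 10.64. The 4-week hearts lie close together for the core genes. Genes of the related lists did not pass at this age either.

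Whether the KO minus WT difference itself differed between the ages was tested as the 10-week minus the 4-week difference. Of all genes 2.08% passed this test, and of the 47 members 0 did. An unadjusted p under 0.05 was found for 15 of the 47 members and for 2535 of all 18193 genes. So the calls at 10 weeks and their absence at 4 weeks do not show a difference between the ages for any single member. Psme1 came nearest, at -0.90 ± 0.20 (adjusted p = 0.0583), followed by Psmd9 at 0.73 ± 0.17 (adjusted p = 0.0723). The median was -0.20 over the members and -0.55 over the ring genes, all 14 of which lay below 0, and 0.07 over the 19S subunits. Without replicate 2 of the 10-week WT hearts some members passed, and more of all genes passed as well. Without replicate 1 of them Psmd8 read 1.04, against 0.83 with all 8 arrays. Without replicate 2 of them Psme1 read -0.98, against -0.90. Each of these fits leaves 1 WT array at 10 weeks, so both are given by size alone.

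Within KO mice, 8 members passed between 10 and 4 weeks, 1 higher (Psmd8) and 7 lower (Psmb3, Psmb4, Psmc3, Psmd6, Psme1, Psme4 and Psmg1). Of all genes 10.5% passed, 3.42% higher and 7.07% lower. Of genes at or above the median level, fitted alone, 19.4% passed, where 17% of members passed in the fit of all genes. Against that background the call count alone does not mark the proteasome out here either. The share among genes of the members' own level was not computed for this comparison. Psmd8 rose by 0.77 ± 0.17 (adjusted p = 0.0204). Psme1 differed by -1.11 ± 0.14 (adjusted p = 0.00179) and Psme4 by -0.84 ± 0.16 (adjusted p = 0.0105), and the others by -0.72 to -0.48. After a further quantile normalization Psmb3 (-0.54, adjusted p = 0.0752), Psmb4 (-0.33, 0.121), Psmc3 (-0.40, 0.0967), Psmd6 (-0.41, 0.0740) and Psmg1 (-0.53, 0.114) did not pass. Psmb4 (0.0704) and Psmc3 (0.0638) also missed the test with trend and robust settings. With 1 array left out in turn, Psmb3 ranged from -0.97 to -0.48 and Psmc3 from -0.78 to -0.38. Within WT mice no member passed between the ages, where 0.115% of all genes did. An unadjusted p under 0.05 was found there for 4 members and for 3285 of all 18193 genes. The WT median was -0.0033 over the 47 members. Psme4 had the lowest WT value, -0.62 (adjusted p = 0.183), with log2 10.23 and 10.63 in 10-week WT hearts, against 11.05 and 11.05 in 4-week WT hearts. It was therefore lower at 10 weeks in both genotypes, past the test in KO. Psmd8 missed the test at 0.64 to 0.90 (adjusted p 0.0502 to 0.119) without any 1 of the 10-week KO, 4-week KO or 4-week WT arrays. Psme4 missed it at -0.76 (adjusted p = 0.0667) without 10-week KO replicate 2 and at -0.72 (0.110) without 4-week KO replicate 2, and Psme1 passed in each of these settings. This comparison shares its 10-week KO hearts with the one above, and the ages differ by litter. The KO count fell without any 1 of the 10-week KO or the 4-week arrays and rose without either 10-week WT array. The WT count rose without replicate 2 of the 10-week WT hearts. The count over all genes moved the same way each time.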

How the data were processed

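Total RNA of 8 hearts, from a TRIzol extraction, was labelled with biotin and read on Affymetrix whole-genome mouse arrays, per the labels' protocols. The deposited values were probe set intensities on the linear scale, made by the authors with GCOS 1.3 and RMA (version not given), per the submitters' processing notes. RMA makes the arrays' distributions alike, so a shift shared by most genes would not show. Here log2 was taken, with no pseudocount and no filter (lowest value 4.90). Of 45101 probe sets, 64 controls were left out, and 34945 named 1 gene in the platform annotation, 932 several and 9160 none. The brightest probe set stood for each of 18193 genes.

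limma 3.58.1 (R 4.3.3) was fitted to all genes and 8 arrays with 1 mean per group and moderated variances. It had 4 residual degrees of freedom, 9.33 after moderation, and a median SE of 0.145 for KO minus WT at 10 weeks. Tests were two-sided, with Benjamini-Hochberg adjustment over all genes and a threshold of 0.05. Further probe sets were tested singly and adjusted over all probe sets. The fit was tested on simulated data with independent noise for each gene and array. Such data hold no deviation shared by the genes of an array, so that test does not bear on one.

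The members, lists and alternatives were chosen with earlier results of these data known. Named members were the catalytic, testis, thymus, activator and inhibitor subunits, every called member, and the largest and smallest difference of each part. Other members, related genes that did not pass, and markers were named after their values were seen. The labels do not say whether replicate numbers pair KO with WT mice. With 2 numbers per age, they were not treated as pairs. Some listed genes were not analysed here, and the level of the deleted gene is not reported here. Psmc3ip, a recombination protein, stayed out, and as an alternative changed no count.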

Additional observations from a re-analysis of the deposited data

How the results depend on the processing

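Leaving out 1 array in turn moved most counts, and the counts over all genes moved as well. The 11 members past the test at 10 weeks became 3 to 18, the 0 at 4 weeks stayed at 0, the 0 of the difference between ages became 0 to 12, the 8 between 10 and 4 weeks in KO became 1 to 17, and the 0 in WT became 0 to 7. With only the groups compared in the fit, which leaves fewer arrays to estimate the spread, 2 members (Psmd8 and Psme1) passed at 10 weeks. Quantile normalization again gave 9 there, split 4 higher and 5 lower against 3 and 8 (without Psma7, Psmb4 and Psmb6, with Psmc2), and 5 in the KO age comparison. Array weights gave 13 in the KO age comparison and 9 at 10 weeks. The difference between ages gave 1, Psme1, with each gene's probe sets averaged, with genes below the median level left out, or with array weights. With the replicate block, 16 members passed at 10 weeks (3 higher and 13 lower), the 11 and Psma2, Psma6, Psmb1, Psmb7 and Psmc3. Of all genes 15.6% passed at 10 weeks with that block and 9.2% with array weights. The share was 13.9% after quantile normalization again and 5.27% with only the groups compared. In the KO age comparison it was 11.1% after that normalization and 13.8% with array weights. Same-numbered hearts deviated together at a correlation of 0.23 at 10 weeks and 0.302 at 4 weeks across genes, and at 0.039 to 0.18 between ages. The cause of these moves was not tested.

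Of named genes' results over all settings, 41 turned sign, 28 of them by at most 1 SE in results past no test, and 13 by more, none past the test under that setting. Of the 13, Psmd11 at 10 weeks had passed otherwise. With probe sets averaged, Psme3 read 0.0947 at 10 weeks, -0.15 at 4 weeks and 0.25 in the difference between ages, Psmf1 0.0729 at 10 weeks and 0.10 in that difference, and Psmc2 -0.0504 in that difference. Without probe sets of shared sequence, Psmd11 read -0.33 at 10 weeks and -0.39 in the difference. Leaving out 1 array in turn, Psma5 ranged to 0.0754 (without 10-week WT replicate 1), Psmb10 from -0.0258 to 0.4969 at 10 weeks and -0.0605 to 0.4621 in the difference (both low without WT replicate 2 and high without WT replicate 1), Psme3 to 0.012 (without 10-week KO replicate 1), and Psmb9 at 4 weeks from -0.3513 to 0.11 (without 4-week KO replicate 2 and without replicate 1).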
